A study of Rattus norvegicus with 30 samples.

Results

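The miRNAs described here are 36 names that are known mainly from tissues other than liver, measured in regenerating and sham-operated rat liver. They were taken by name, written in the files with the prefix rno for rat, as in rno-miR-1, rno-miR-128, rno-miR-182 and rno-miR-217. There were 5 of skeletal or cardiac muscle (miR-1, miR-133a, miR-133b, miR-206 and miR-208), 12 of brain (miR-9, miR-124, miR-128, miR-129, miR-137, miR-138, miR-218, miR-219-5p, miR-7a, miR-135a, miR-135b and miR-184) and 8 of the early embryo (miR-290, both arms of miR-291a and of miR-292, miR-293, miR-294 and miR-295). A further 3 are of the pancreas (miR-216a, miR-217 and miR-375), 3 are of sensory organs (miR-183, miR-96 and miR-182), and 5 belong to none of these (miR-202, miR-204, miR-211, miR-201 and miR-743a). All 36 stood among the 388 rat miRNA names of the hepatectomy chip and among the 680 names of the sham chip, and so among the 376 names that both chips carry. The animals were male Wistar rats, and total liver RNA with its small fraction was extracted on columns. One set of groups had 70% of the liver removed by the method of Higgins and Anderson and was sampled at 0, 2, 6, 12, 24 and 48 h and at 5 d. The other set had a sham laparotomy, in which the abdomen is opened and the liver left whole, and was sampled at 12, 24 and 48 h. The hepatectomy group at 0 h was the baseline of the hepatectomy time course. No sham group at 0 h was used here, so the sham group at 12 h was the baseline of the sham series. There were 3 arrays in each of the 10 groups, which the labels call biological replicates, and all p values measure the spread between these arrays.

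A miRNA is a short RNA that pairs with messenger RNAs mainly through its seed, the bases 2 to 8 from its 5′ end, and lowers their translation and stability. Many miRNAs are made in nearly all cells, but some are transcribed under the control of factors of a single lineage and are abundant only there. miR-1, miR-133 and miR-206 are made in muscle cells under myogenic factors, and miR-208 comes from an intron of a cardiac myosin gene. miR-124, miR-9 and miR-128 are abundant in neurons, the miR-290 cluster in mouse embryonic stem cells, miR-216a and miR-217 in acinar cells and miR-375 in islets of the pancreas. Liver is instead dominated by miR-122, the hepatocyte miRNA, with miR-192 and miR-26a among other abundant species. The labelled tissue was borne out by the first of these: miR-122 averaged 18.1 times the array background over the 21 hepatectomy arrays and 35.5 times over the 9 sham arrays. In bulk tissue, fewer cells of a type and less RNA per cell cannot be told apart.

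Mature sequences were found in RefSeq for 32 of the 36 names, 8 of them under the name on the chip, and carried 27 different seeds. Of the others, miR-124, miR-202, miR-293 and miR-295 are named only. The muscle miRNAs are shown first, because 2 pairs among them share a seed and differ in few bases, so that their probes may bind each other's target. In all sequences the capitals mark the seed, read 5′ to 3′.
miR-1: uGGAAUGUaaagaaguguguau
miR-206: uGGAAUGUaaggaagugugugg
miR-133a: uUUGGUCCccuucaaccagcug
miR-133b: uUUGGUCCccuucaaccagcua
miR-208: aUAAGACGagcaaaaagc
Counted from 1 at the 5′ end, miR-206 differs from miR-1 by A11G, A21G and U22G, and miR-133b differs from miR-133a by G22A. On the rat assembly GRCr8, miR-1 and miR-133a lie 2.475 kb apart end to end on the minus strand at chr18:2157886-2160360. miR-206 and miR-133b lie on the plus strand at chr9:30590747-30594650. Each of these loci therefore holds 1 member of either seed family.

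Names among those of highest signal in liver or that passed a test between operations are shown next, where a sequence was found. miR-183 and miR-96 are added as the cluster partners of miR-182.
miR-128: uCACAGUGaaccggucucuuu
miR-217: uACUGCAUcaggaacugacugg
miR-216a: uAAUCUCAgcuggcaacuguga
miR-182: uUUGGCAAugguagaacucacaccg
miR-183: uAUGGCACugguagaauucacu
miR-96: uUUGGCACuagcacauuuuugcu
miR-201: cACUCAGUaaggcauuguuc
miR-743a: gAAAGACGccaaacuggguaga
miR-216a and miR-217 lie together at chr14:106725095-106732537 on the plus strand. miR-183, miR-96 and miR-182 form 1 cluster at chr4:59752249-59756127 on the minus strand, and are known to be made from a common transcript in retina and inner ear. miR-201 and miR-743a are both on the X chromosome, at chrX:151711832-151711851 and chrX:150444098-150444119 on the minus strand. The mature forms of miR-128 come from 2 gene copies, at chr13:42251933-42251953 and chr8:120963807-120963827.

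A further 2 pairs that share a seed are shown because the members of a pair differ by 1 base. Mean ratios after hepatectomy were 1.004 and 0.985 for miR-135a and miR-135b, and 1.07 and 0.993 for miR-204 and miR-211.
miR-135a: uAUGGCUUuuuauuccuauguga
miR-135b: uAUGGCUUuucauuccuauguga
miR-204: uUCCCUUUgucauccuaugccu
miR-211: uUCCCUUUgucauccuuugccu
miR-135b differs from miR-135a by U11C, and miR-211 from miR-204 by A17U. The last shared seed, CUCAAAC, is that of miR-290 and miR-292-5p, which lie with miR-291a, miR-292-3p and miR-294 within 1.987 kb at chr1:74878137-74880123 on the minus strand. Probe sequences of the chips were not used here.

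None of the 36 miRNAs reached a level clearly above array background in hepatectomised liver at any of the 7 times. Level is given here as a ratio, the median raw spot of a miRNA over the background constant that the authors subtracted on the same array. Probes of different miRNAs can differ in the signal they give per molecule, so an order of these ratios is an order of probe readings and not of miRNA amounts. A miRNA was called above background in a group when that ratio was at least 1.5 on all 3 arrays. By that rule 0 of the 36 passed at 0, 2, 6, 12, 24 and 48 h and at 5 d, where 2.84%, 1.55%, 0.773%, 4.9%, 1.29%, 2.06% and 1.8% of the 388 names passed. In sham liver 0 of 36 passed at 12 h and at 48 h, against 3.68% and 5.59% of the 680 names, and 2 passed at 24 h, against 9.26% of names. The 2 were miR-128 and miR-182.

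The mean ratio over the 21 hepatectomy arrays lay between 0.985 and 1.33 for the 36 miRNAs, with a median of 1.11, against a median of 1.14 over all 388 names. No member had a mean ratio of 1.5 or more, against 39 of 388 names (10.1%), and 5 had 1.2 or more, against 132 names (34.0%). Of the 36, 13 lay above the median name. Over the 9 sham arrays the mean ratios ran between 0.919 and 1.44 with a median of 1.04, against a median of 1.08 over 680 names. Again 0 of 36 reached a mean of 1.5, against 57 names (8.38%), and 9 lay above the median name. Among the yardsticks of liver, miR-192 had mean ratios of 3.82 on hepatectomy and 15.3 on sham arrays. let-7a, a weakly detected yardstick, had 1.62 and 2.38, above every one of the 36.

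**Figure D1:**
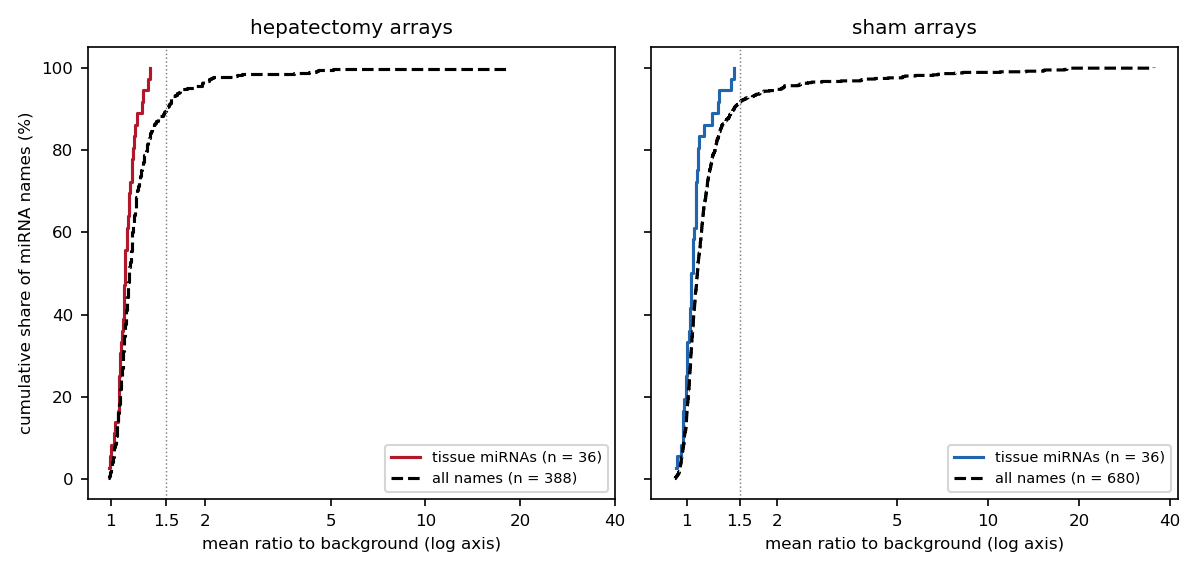
Cumulative share of miRNA names (percent, vertical) by mean ratio to array background (horizontal, log axis) for the 36 tissue miRNAs (solid) and all names (dashed), on the hepatectomy arrays (left, n = 388 names) and the sham arrays (right, n = 680 names). The solid curves end at 1.33 and 1.44, left of the dotted line at 1.5, while the dashed curves run on to 18.1 and 35.5.

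These ratios correspond to small differences in scanner units. Over 756 values (36 miRNAs on 21 hepatectomy arrays), the median signal above the background constant was 64 units, with quartiles of 16 and 128 and a range of -120 to 656. The spots of 1 name on 1 array, 15 by design, had a median interquartile range of 151 units. Of the 756 values, 81.3% were smaller than the interquartile range of their own spots. At or below the constant lay 18.1% of them. On the sham arrays, which carry 22 spots a name, the median was 12 units (quartiles -8 and 36, range -64 to 272). There the median interquartile range of spots was 99 units. Of 324 values, 94.1% were below the interquartile range of their own spots and 35.5% were at or below the constant. Single arrays reached a ratio of 1.5 in 23 of 756 hepatectomy values and in 7 of 324 sham values. The constant itself differed between arrays. It was 840 to 1200 units on 13 hepatectomy arrays, 400 to 544 on the other 8, and 248 to 384 on the sham arrays. The median ratio of the 36 miRNAs on an array was 0.978 to 1.23 on the 13 high arrays and 1.06 to 1.29 on the 8 low ones. On the sham arrays it was 0.977 to 1.09.

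**Figure D2:**
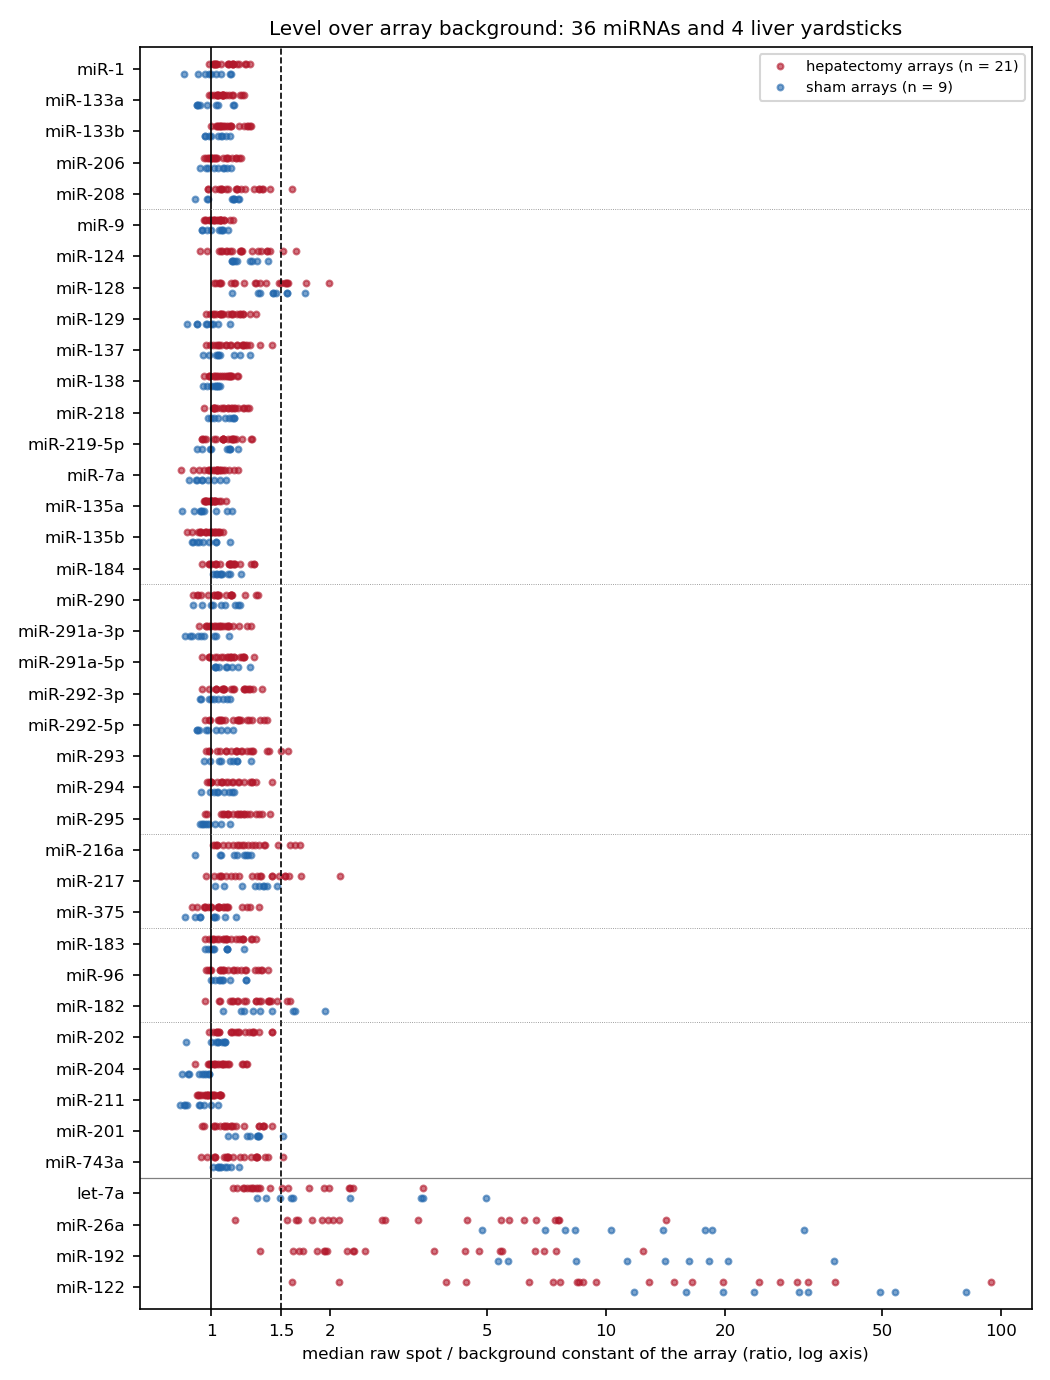
Ratio of the median raw spot to the background constant of the array (horizontal, log axis) for each of the 36 miRNAs, grouped as muscle, brain, embryo, pancreas, sensory and other by dotted lines, with 4 liver yardsticks at the bottom; each point is 1 array (red, 21 hepatectomy arrays; blue, 9 sham arrays), the solid line is a ratio of 1 and the dashed line 1.5. Most points of the 36 miRNAs lie left of 1.5, on both sides of 1, whereas miR-122 spans 1.6 to 94.6 on the hepatectomy arrays.

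Of the 5 muscle miRNAs, none was above background in any group, and their mean ratios after hepatectomy ran between 1.05 for miR-206 and 1.19 for miR-208. miR-1, which restrains growth of cardiac and skeletal muscle, had background-subtracted signals of 24, 16 and 16 units at 0 h, -8, 16 and 16 at 2 h, 64, 8 and 108 at 6 h, and 104, 152 and 136 at 12 h. It had 208, 112 and 92 units at 24 h, 144, 24 and 72 at 48 h, and 88, 48 and 60 at 5 d. On the sham arrays it had 32, -52 and 8 units at 12 h, 0, -4 and 16 at 24 h, and -12, -28 and 36 at 48 h. The 12 h and 24 h hepatectomy arrays thus lay above the 0 h arrays without overlap, and the sham arrays lay on both sides of 0. miR-206, the skeletal form with the same seed, had 64, 168 and 128 units at 12 h and 168, 128 and 88 at 24 h after hepatectomy, against 8, -24 and 8 at 0 h. The same arrays were brighter for names in general: the median of all 388 names above the constant was 112, 208 and 144 units on the 12 h arrays and 264, 136 and 112 on the 24 h arrays, against 64, 32 and 64 at 0 h. Once arrays were normalised to a common distribution, the log2 difference at 24 h was 0.12 for the median of the 36 and 0.07 for the median of all names. miR-208, the cardiac member, had a mean ratio of 1.19 on hepatectomy and 1.08 on sham arrays. Its highest array was at 5 d, where the ratios were 1.6, 1.41 and 1.07. Another muscle miRNA, miR-499, was at 1.11 and 1.06.

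Of the 12 brain miRNAs, only miR-128 was above background in a group, the sham group at 24 h. miR-128, which in mouse restrains neuronal excitability, gave the highest mean probe ratio of the 36 on both chips. Its ratios after hepatectomy were 1.12, 1.04 and 1.21 at 0 h, 1.5, 1.55 and 1.29 at 12 h, and 1.98, 1.73 and 1.06 at 5 d. In sham liver they were 1.43, 1.12 and 1.46 at 12 h, 1.73, 1.56 and 1.55 at 24 h, and 1.33, 1.31 and 1.43 at 48 h. The 5 d arrays differed from one another by more than they differed from other times, and the 3 sham arrays at 24 h lay close together. miR-124, which represses non-neuronal transcripts, averaged 1.21 on hepatectomy and 1.21 on sham arrays. miR-9, which acts in neural progenitors, averaged 1.03 and 1.02 and never passed 1.13 on a hepatectomy array. At the low end, miR-135a and miR-135b averaged 1.004 and 0.985 after hepatectomy, and each was at or below the constant on 12 of 21 arrays. The median of the 10 further neural names on the chip was 1.14 after hepatectomy, the highest being miR-153 at 1.26. In sham liver that median was 1.08.

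The 8 names of the miR-290 cluster, which in mouse keeps embryonic stem cells cycling, had mean ratios between 1.06 and 1.19 after hepatectomy. miR-290 itself averaged 1.07 and miR-294 averaged 1.13, and miR-293 was the highest of the 8. In sham liver the 8 lay between 0.956 and 1.10. miR-290 had 16, 272 and 128 units above the constant at 12 h, 208, 104 and 112 at 24 h and 336, 16 and 56 at 48 h, against 32, 16 and -48 at 0 h. Single arrays carried most of the height at 12 h and at 48 h. Names of the 2 arms of miR-292 had nearly the same mean, 1.15 for the 5p arm and 1.13 for the 3p arm.

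None of the 3 pancreatic names was above background in any group. miR-217 averaged 1.32 after hepatectomy and 1.27 in sham liver. Its ratios were 1.12, 1.06 and 1.17 at 0 h, 1.42, 1.53 and 1.42 at 12 h, 1.68, 1.32 and 1.26 at 24 h and 2.12, 1.57 and 1.06 at 5 d. miR-216a, its neighbour in the genome, averaged 1.25 and 1.14. miR-375, which controls insulin secretion, averaged 1.06 and 0.992 and was at or below the constant on 8 of 21 hepatectomy arrays.

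Of the sensory cluster, miR-182 averaged 1.27 after hepatectomy and 1.41 in sham liver, and its cluster partners miR-96 and miR-183 averaged 1.15 and 1.11 after hepatectomy and 1.09 and 1.05 in sham liver. Of the remaining 5, miR-743a (1.18), miR-202 (1.17) and miR-201 (1.15) lay above the median name after hepatectomy, whereas miR-204 averaged 1.07 and miR-211 0.993. miR-201 was higher on the sham chip, at 1.28, the third of the 36 there. For names of the same X-linked testis clusters, the median was 1.16 after hepatectomy and 1.05 in sham liver, with miR-878 highest at 1.42 and 1.28. The star strands of the 36, the opposite arms of their hairpins, gave a median of 1.14 over 9 names after hepatectomy and 1.07 over 32 names in sham liver. None of these companion names had a mean ratio of 1.5.

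Probe readings of the 36 followed a similar order on both chips. The mean ratios on the hepatectomy and sham chips had a Spearman correlation of 0.768 and a Pearson correlation of 0.819 across the 36 names, which is a description across miRNAs that share the probe design and not a test. Ratio was only weakly ordered by the G and C content of the mature sequence (Spearman 0.213 on the hepatectomy and 0.0464 on the sham chip, 32 names) and by its length (-0.264 and -0.273). Neighbours in the order overlapped widely. The single-array ratios after hepatectomy ran between 1.01 and 1.98 for miR-128, 0.970 and 2.12 for miR-217, 0.963 and 1.58 for miR-182, 1.01 and 1.68 for miR-216a, and 0.933 and 1.64 for miR-124.

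**Figure D3:**
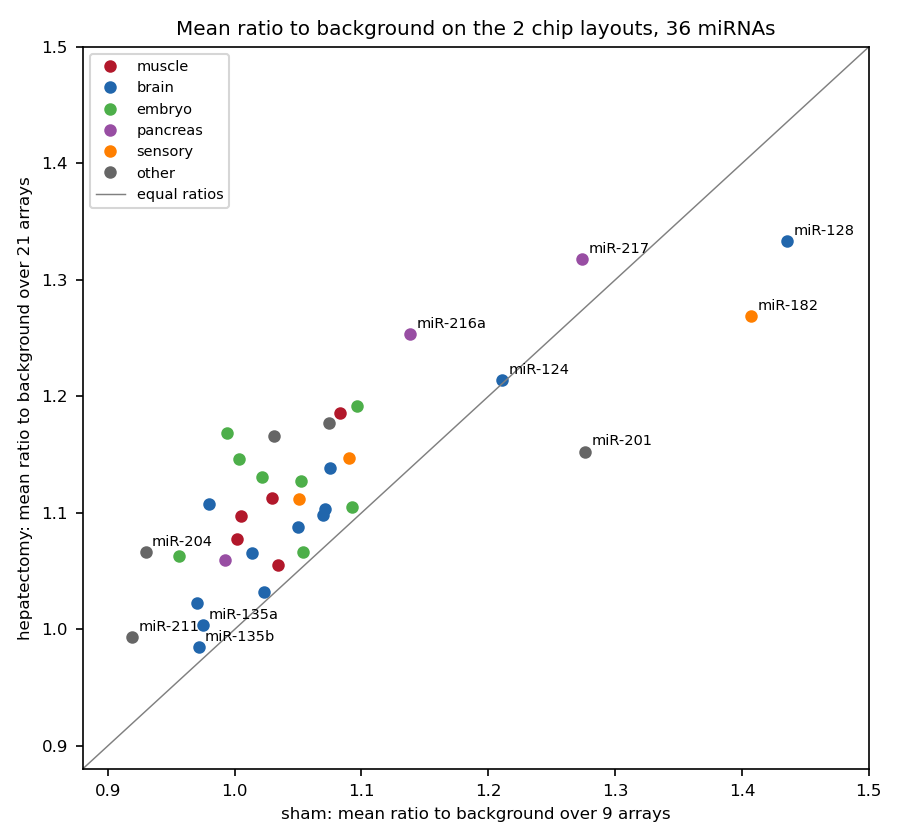
Mean ratio to background on the 21 hepatectomy arrays (vertical) against that on the 9 sham arrays (horizontal) for the 36 miRNAs, coloured by tissue list, with the line of equal ratios. miR-128, miR-217 and miR-182 are high on both chips, miR-135a, miR-135b and miR-211 low on both, and miR-201 lies to the right of the line at 1.15 and 1.28.

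The time course asked whether any of these miRNAs changed after hepatectomy, and none passed the test at any time. For this, signal was normalised between arrays and compared on the log2 scale with limma, with p values adjusted over all 388 names. The differences are between signals at or near background, so they are given on the log2 scale and not as folds of the miRNA. At 2 h, 0 of 36 passed, against 0% of names, and 0 of 36 had an unadjusted p under 0.05, against 6.19% of names. At 6 h, 0 of 36 passed, against 0.258% of names, again with 0 at an unadjusted p under 0.05 (6.7% of names). The counts passing were 0 of 36 at 12 h (2.84% of names), 24 h (7.73%), 48 h (4.12%) and 5 d (0.258%), and 0 of 36 for a difference among any of the 7 times by limma's moderated F test (2.32%). At an unadjusted p under 0.05 there were 3 of 36 at 12 h (18.8% of names), 7 at 24 h (27.1%), 6 at 48 h (16%), 4 at 5 d (13.7%) and 1 for any time (11.1%). All 6 comparisons share the 3 arrays at 0 h. The standard error of a difference had a median of 0.178 for the 36.

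Counts of miRNAs whose 3 arrays did not overlap the 3 arrays at 0 h read the same way. They were 4 of 36 at 2 h (13.7% of names) and again 4 at 6 h (13.4%). Later they were 7 at 12 h (25.3%), then 9 at 24 h (33%), then 7 at 48 h (18%), with 5 at 5 d (16.2%). Of the 9 at 24 h, 8 were higher than at 0 h and 1 was lower. The median log2 difference of the 36 was 0.10, 0.09, 0.09, 0.12, 0.15 and 0.04 from 2 h to 5 d, and that of all names was 0.03, 0.04, 0.05, 0.07, 0.09 and 0.03. Counts of positive differences, called or not, are given by list as a description, and no list was tested as a whole. Of the 12 brain names, 10 had a positive difference at 2 h, 10 at 6 h, 9 at 12 h, then 7 at 24 h, 11 at 48 h and 6 at 5 d. Of the 8 embryo names these were 5, 6, 6, 7, 4 and 5 over the same times, and of the 5 muscle names 3, 2, 3, 3, 3 and 1. Of the 3 pancreatic names they were 1, 2, 2, 1, 2 and 2, of the 3 sensory names 2, 2, 2, 3, 2 and 2, and of the 5 remaining names 5, 5, 4, 4, 4 and 4.

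At 24 h, near the known peak of hepatocyte DNA synthesis after this operation in rats, the smallest p values belonged to miR-184, miR-208 and miR-133b. miR-184, of neural stem cells and the eye, had normalised log2 signals of 7.75, 7.67 and 8.09 at 24 h, against 7.26, 7.33 and 7.46 at 0 h (difference 0.49, SE 0.16, limma adjusted p = 0.0707). miR-208 had 7.88, 8.01 and 8.12 at 24 h, against 7.59, 7.61 and 7.59 at 0 h (difference 0.41, SE 0.14, limma adjusted p = 0.0707). With the background class of the arrays as a block the difference was 0.48 and passed (limma adjusted p = 0.0204), as it did at 0.46 with signal span as a covariate (limma adjusted p = 0.0256). Of 19 alternatives run for miR-208 at 24 h only 3 passed, and the limma adjusted p ran up to 0.397. miR-208 was also the smallest p at 5 d, with 8.23, 8.18 and 7.83, against the same 0 h arrays (difference 0.48, SE 0.14, limma adjusted p = 0.134). In each of these the groups did not overlap. The mean ratio of miR-208 to background was 1.23 at 24 h and 1.36 at 5 d, against 1.06 at 0 h.

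The miR-133 pair stood out as the only names of the 36 with a negative difference at an unadjusted p under 0.05 at 24 h. miR-133b had normalised log2 signals of 7.22, 7.47 and 7.48 at 24 h, against 8.02, 8.05 and 7.60 at 0 h, without overlap (difference -0.50, SE 0.19, limma adjusted p = 0.0963). miR-133a had 6.99, 7.37 and 7.66 at 24 h, against 8.12, 7.94 and 7.45 at 0 h, with overlap (difference -0.50, limma adjusted p = 0.125). The pair differs by a single base and may read 1 signal, so the names are not independent. Before normalisation the groups overlapped for both. miR-133b had 112, 48 and 48 units above the constant at 24 h, against 120, 80 and 48 at 0 h, and miR-133a had 128, 32 and 64, against 128, 48 and 40. The negative difference is relative to the other names, whose medians on these arrays are given above and were higher at 24 h on every array. With the authors' processed values both passed, miR-133b at a difference of -2.17 (limma adjusted p = 0.0120) and miR-133a at -1.85 (limma adjusted p = 0.0410). All 3 arrays at 24 h had a high background constant, against 2 of 3 at 0 h. With the background class as a block the differences were -0.59 and -0.60 (limma adjusted p = 0.0291 for both). For miR-133b at 24 h, 5 of 19 alternatives passed, and the limma adjusted p ran up to 0.653.

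At 12 h the smallest p was that of miR-201. Its log2 signals were 8.06, 8.26 and 7.56 at 12 h, against 7.23, 7.46 and 7.43 at 0 h (difference 0.59, SE 0.16, limma adjusted p = 0.0590). All 3 arrays at 12 h lay above those at 0 h, 1 of them narrowly. Without replicate 3 at 12 h, the lowest of the 3, the difference was 0.78 with a limma adjusted p of 0.0185. With the background class as a block it was 0.59 and passed (limma adjusted p = 0.0371), and with signal span as a covariate 0.56 (limma adjusted p = 0.0313). Only 4 of 19 alternatives passed for miR-201 at 12 h, and the limma adjusted p ran up to 0.545. miR-133a (-0.48, SE 0.21, limma adjusted p = 0.213) and miR-202 (0.30, SE 0.14, limma adjusted p = 0.222) followed.

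At 48 h, miR-219-5p, which promotes oligodendrocyte maturation, had 7.79, 7.98 and 7.47, against 7.21, 7.24 and 7.43 at 0 h (difference 0.45, SE 0.14, limma adjusted p = 0.0791). Leaving out replicate 3 at 48 h, again the lowest array, gave a limma adjusted p of 0.0350. Only 2 of 19 alternatives passed for miR-219-5p at 48 h, and the limma adjusted p ran up to 0.758. Next came miR-96 (0.43, SE 0.16, limma adjusted p = 0.151) and miR-290 (0.50, SE 0.20, limma adjusted p = 0.192). Earlier, at 2 h, the leading names were miR-211 (0.48, SE 0.26), miR-219-5p (0.25, SE 0.14) and miR-291a-3p (0.37, SE 0.21), all at a limma adjusted p of 0.896. At 6 h they were miR-218 (0.35, SE 0.19), miR-133a (-0.37, SE 0.21) and miR-96 (0.26, SE 0.16), all at 0.779. At 5 d, miR-124 (0.37, SE 0.17) and miR-96 (0.34, SE 0.16) followed miR-208, both at a limma adjusted p of 0.363. For any of the 7 times, the leading names were miR-208, miR-184 and miR-201, at limma adjusted p values of 0.383, 0.451 and 0.456.

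**Figure D4:**
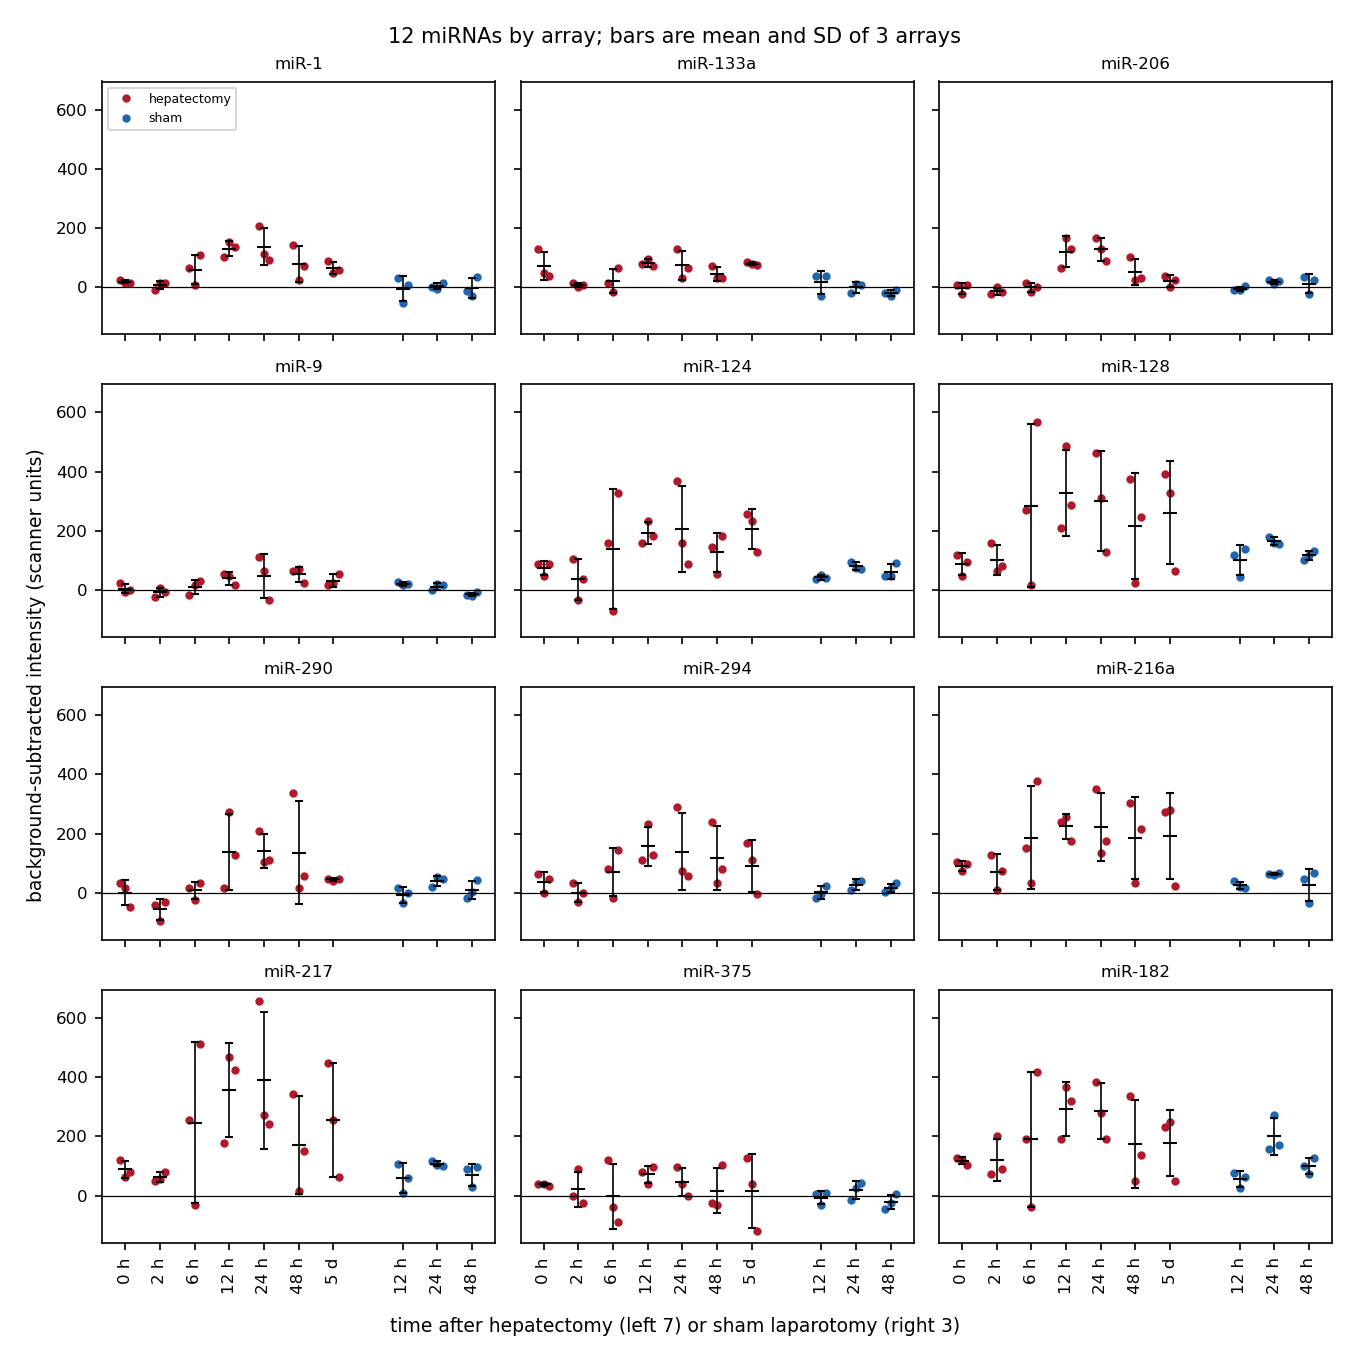
Background-subtracted intensity in scanner units (vertical) of 12 of the miRNAs by time after hepatectomy (red, 7 times) and sham laparotomy (blue, 3 times); points are single arrays and bars the mean and SD of 3 arrays, with the line at 0 marking the background constant. Most panels share a higher 6 h to 5 d stretch with wide bars after hepatectomy, as in miR-217, whose arrays at 24 h were at 656, 272 and 240 units, and sham points near 0 except for miR-128, miR-217, miR-182 and miR-124.

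Of the 4 yardsticks of liver, 2 passed the test at 24 h on the same arrays and 2 did not. miR-26a fell by 1.97 and let-7a fell by 1.16 on the log2 scale against 0 h (limma adjusted p = 0.000298 and 0.00431). miR-122 had a difference of -1.41 (limma adjusted p = 0.105) and miR-192 of -0.65 (limma adjusted p = 0.240). Whether the yardsticks differed from the 36 was not tested. The ratios of miR-26a to background were 1.98, 1.64 and 1.15 at 24 h, against 4.43, 2.7 and 14.1 at 0 h. The part of this lower signal in the differences of dim names was not tested.

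Within the sham series the question was whether any of the 36 changed between 12 h and the later times. At 24 h against 12 h and at 48 h against 12 h, 0 of 36 passed, as for all 680 names (0% in both, limma). A change already present at 12 h after sham surgery could not be seen, since no earlier sham group was used. At an unadjusted p under 0.05 there were 3 of 36 at 24 h (8.97% of names), 1 at 48 h (6.62%) and 2 for any sham time (6.62%). The median standard error was 0.098 log2 units. Groups that did not overlap numbered 5 of 36 at 24 h (14% of names) and 4 at 48 h (12.4%). The median difference of the 36 at 24 h was -0.08, against -0.03 for all names.

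miR-182 had the clearest single reading in the sham series. Its ratios to background were 1.63, 1.94 and 1.61 at 24 h, against 1.27, 1.07 and 1.21 at 12 h, and 1.33, 1.19 and 1.42 at 48 h. Its normalised log2 signals were 7.93, 8.24 and 8.12 at 24 h, against 7.73, 7.67 and 7.62 at 12 h, without overlap (difference 0.42, SE 0.11, limma adjusted p = 0.257). The ratio of miR-122 on the same sham arrays was 30.9, 81.7 and 53.9 at 24 h, against 11.7, 16 and 19.7 at 12 h, so the arrays at 24 h were brighter over background for the hepatocyte miRNA as well. The part of that brightness in the reading of miR-182 was not tested. miR-128, also above background at 24 h, had the same normalised level at 24 h and 12 h (8.05 and 8.04). Set against the dimmest names above background on the 12 h arrays, neither miR-128 nor miR-182 gave a bound above 1, so no fold is given.

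miR-9 was lower at both later sham times. Its log2 signals were 6.93, 7.08 and 7.14 at 24 h and 7.07, 7.10 and 7.01 at 48 h, against 7.44, 7.42 and 7.29 at 12 h. The differences were -0.33 (SE 0.09, limma adjusted p = 0.257) and -0.32 (SE 0.09, limma adjusted p = 0.541). In scanner units miR-9 had 0, 20 and 16 at 24 h and -16, -20 and -8 at 48 h. At 12 h it had 28, 16 and 20. All of these are smaller in size than the median spread of single spots, 99 units. miR-133b at 24 h (-0.26, limma adjusted p = 0.537) and miR-133a and miR-135b at 48 h (both -0.19, limma adjusted p = 0.731) came next. For any sham time, miR-9, miR-182 and miR-133b led, at limma adjusted p values of 0.547, 0.582 and 0.842.

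The comparison of hepatectomy with sham at matched times asked whether the 36 differed between operations, and 3 of them passed. Every hepatectomy array had 1 chip layout and every sham array the other, so operation and layout cannot be told apart. At 12 h, 1 of 36 passed, against 1.06% of the 376 shared names, at 24 h 2 of 36, against 11.4%, and at 48 h 0 of 36, against 2.39% (limma). At an unadjusted p under 0.05 there were 5 of 36 at 12 h (19.9% of names), 6 at 24 h (25.8%) and 4 at 48 h (14.6%). Groups that did not overlap numbered 8 of 36 (26.3% of names), 14 (37.2%) and 6 (17.8%). The median difference of the 36 was -0.03 at 12 h, 0.00 at 24 h and 0.07 at 48 h.

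miR-202, known from gonads, was higher after hepatectomy at 12 h. Its jointly normalised log2 signals were 7.80, 7.82 and 7.74 in hepatectomised liver, against 7.27, 7.01 and 7.48 in sham liver, without overlap (difference 0.53, SE 0.12, limma adjusted p = 0.0322). Its ratios to background were 1.42, 1.27 and 1.15 after hepatectomy, against 1.03, 0.864 and 1 after sham surgery. It did not pass without replicate 1, 2 or 3 of the hepatectomy group at 12 h or replicate 2 of the sham group. At 24 h its difference was 0.35 (limma adjusted p = 0.0608).

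miR-743a was higher and miR-201 lower after hepatectomy at 24 h, though both belong to X-linked clusters best known from testis. miR-743a had 7.82, 8.02 and 7.93 in hepatectomised liver, against 7.51, 7.37 and 7.56 in sham liver (difference 0.44, SE 0.13, limma adjusted p = 0.0251). miR-201 had 7.73, 7.31 and 7.45 in hepatectomised liver, against 8.14, 7.86 and 7.93 in sham liver (difference -0.48, SE 0.15, limma adjusted p = 0.0349). In both the groups did not overlap. In ratios to background, miR-743a was at 1.3, 1.26 and 1.21 after hepatectomy, against 1.1, 1.06 and 1.08 after sham surgery, and miR-201 at 1.32, 1.12 and 1.13, against 1.52, 1.32 and 1.31. Of 15 alternatives run for each, the 6 that leave out an array included, the adjusted p passed in 6 for miR-202 at 12 h, 7 for miR-743a and 6 for miR-201 at 24 h, and the sign held in all 15. At 48 h the leading names were miR-216a (0.49, SE 0.17, limma adjusted p = 0.138), miR-182 (-0.38, SE 0.15, limma adjusted p = 0.178) and miR-201 (-0.35, SE 0.15, limma adjusted p = 0.267). The sign of the last 2 turned positive with no normalisation between arrays.

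A constant offset between layouts cancels when the change over time is compared between operations, and by that test 0 of 36 passed for the change from 12 h to 24 h or from 12 h to 48 h, as for all 376 names (0% in both, limma). At an unadjusted p under 0.05 there were 2 of 36 for the first interval (4.79% of names) and 3 for the second (2.93%), with a median standard error of 0.220. For the first interval, the leading names were miR-184 (0.47, SE 0.19, limma adjusted p = 0.753), miR-743a (0.42, SE 0.18, limma adjusted p = 0.838) and miR-9 (0.42, SE 0.22, limma adjusted p = 0.904). For the second they were miR-9 (0.69, SE 0.22), miR-135b (0.56, SE 0.24) and miR-133a (0.47, SE 0.21), all at a limma adjusted p of 0.975. The value for miR-9 at 24 h was -0.01 with no normalisation between arrays. The 3 names called between operations had no called difference in change: miR-202 stood at -0.18 and -0.33 for the 2 intervals, miR-743a at 0.42 and 0.13, and miR-201 at -0.21 and -0.08.

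**Figure D5:**
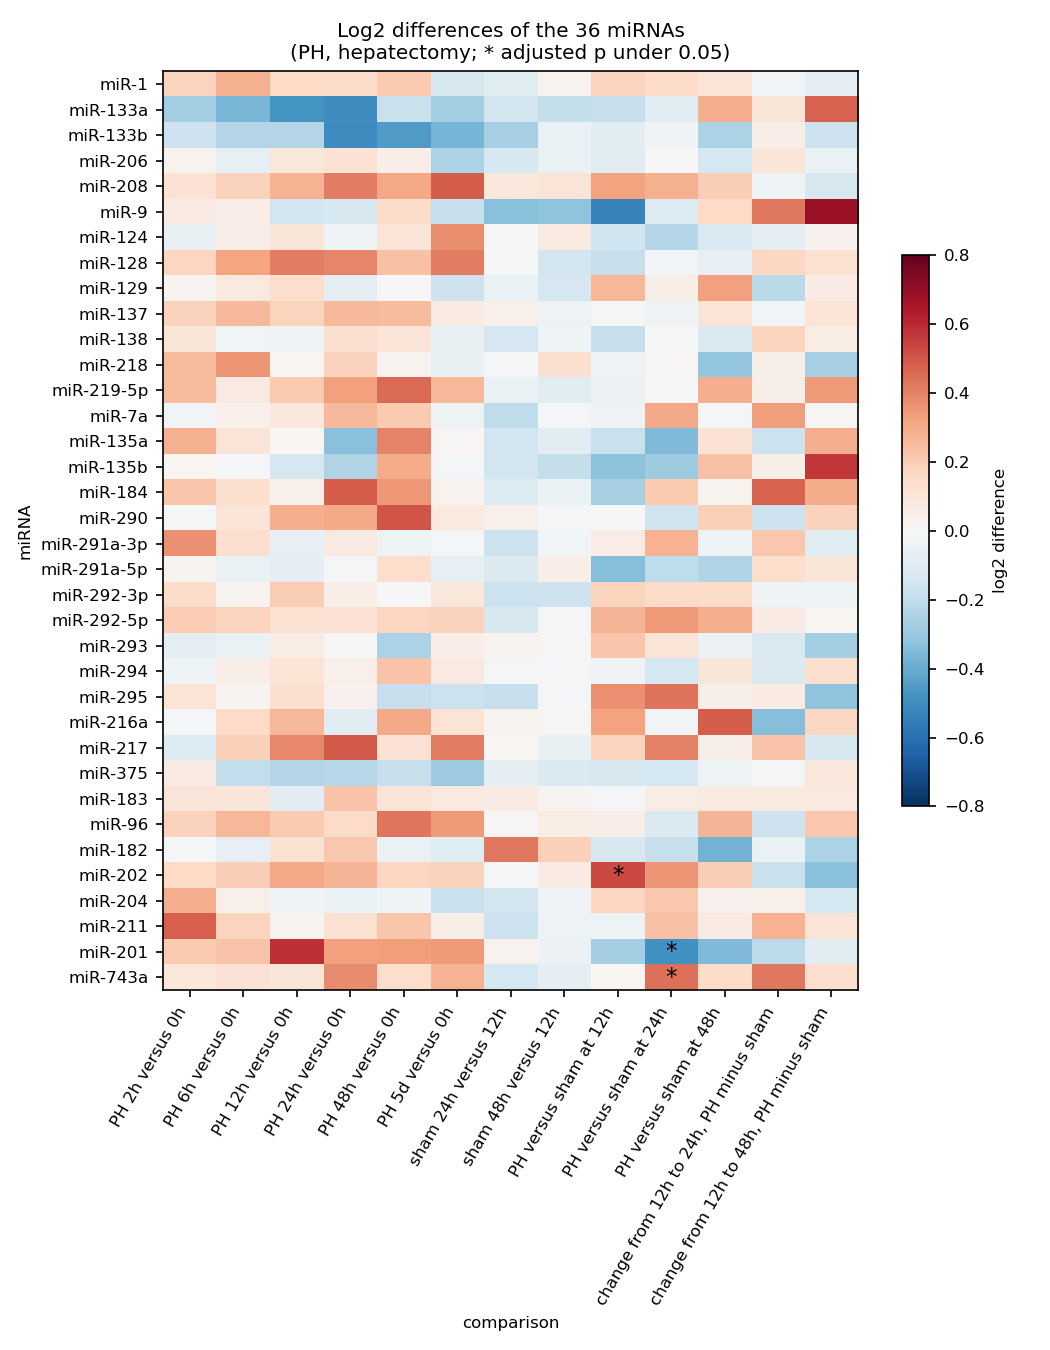
Log2 difference (colour scale, red higher, blue lower) of each of the 36 miRNAs (down) in 13 comparisons (across): 6 hepatectomy times against 0 h, 2 sham times against 12 h, hepatectomy against sham at 3 times, and 2 differences in change; a star marks a limma adjusted p under 0.05. The 3 stars are miR-202 at 12 h and miR-743a and miR-201 at 24 h, all between operations, and miR-133a and miR-133b form the blue pair at 24 h against 0 h.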

How the data were processed

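Rat liver miRNAs were measured on 30 one-colour arrays of a microfluidic febit chip, on which the bound miRNA primes an enzymatic extension with labelled nucleotides, per the labels' protocols. The authors deposited raw spot intensity for each array, and a background-subtracted intensity per name that equals the median raw spot minus 1 constant per array. Processed log2 values of 323 names were deposited as well. The sources used here do not name the image software, the genome build behind the probes or how the constants were chosen. Relative to the raw tables, whose replicate numbers are kept, 4 columns of the other tables were exchanged within their group (numbers 1 and 2 at 2 h, and 1 with 3 in the 48 h group).

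Raw intensities were corrected with normexp (offset 50), log2 transformed, quantile normalised and averaged over spots with limma 3.58.1 in R 4.3.3. Spots are 15 a name on hepatectomy and 22 on sham chips, with 0.585% and 0.811% missing and left out. The joint fit of both operations averaged spots first and held 376 names. Linear models with empirical Bayes moderation had 14, 6 and 20 residual degrees of freedom. Two-sided p values were adjusted by Benjamini-Hochberg over all names of a comparison, with a threshold of 0.05. The scripts were tested on simulated data. The number of arrays limits the precision. No 2 arrays held identical values.

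The members and lists were chosen with earlier results of these data known. Named with values were members past the threshold, otherwise the 3 smallest p values of a comparison, the 10 highest mean ratios, defining members of each tissue, and miR-122, miR-192, let-7a and miR-26a. Mature sequences and positions are those of RefSeq on GRCr8. Alternatives were other normalisations and background corrections, the authors' values, spot medians, a filter on dim names, array weights, signal span or background class as covariates, a replicate block and leaving out each array. For the hepatectomy time course, the high-background arrays alone and only the 2 groups compared were also used.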

Additional observations from a re-analysis of the deposited data

How the results depend on the processing

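Counts below are of the 36 miRNAs past a limma adjusted p of 0.05, with the share of all names past it in brackets. Against 0 h, array weights gave 2 at 6 h (3.61%) and 2 at 12 h (16%), then 5 at 24 h (23.7%) and 4 at 48 h (11.6%), with 5 at 5 d (14.4%) and 8 for any time (22.4%), against 0 in each without weights. The estimation of weights stopped short of convergence in the hepatectomy and the joint fits. Signal span (95th percentile minus median of log2 signal) as a covariate gave 1 at 12 h (6.19%), 3 at 24 h (12.4%) and 1 at 48 h (5.93%), and background class as a block 1 at 12 h (6.96%) and 3 at 24 h (11.9%). The 1 at 12 h was miR-201 in both. At 24 h the authors' background-subtracted values gave 1 (4.64%) and their processed values 2 (11.1%). The names called at 24 h by at least 1 of these were miR-133a, miR-133b, miR-208, miR-184 and miR-219-5p. Fits of only the 2 groups compared gave 0 at each time against 0 h. High-background arrays alone, 2 or 3 a group at 0, 6, 12, 24 and 48 h, gave 0 at those times. They leave 1 array at 2 h and at 5 d, where no count is given. Shares of all names are not given for these fits, which use fewer arrays. Leaving out 1 array gave 0 to 1 at 12 h (miR-201, without hepatectomy replicate 3, 1.03%) and 0 to 1 at 48 h (miR-219-5p, without hepatectomy replicate 3, 4.12%). Between operations at 12 h the count of 1 became 0 with median or 75th percentile centring, no background correction, the authors' background-subtracted values, spot medians or dim names left out (5 of the 36 tested), where 0% to 1.75% of all names passed. It was 2 with array weights (5.59%) and 15 with no normalisation (39.4%). At 24 h the count of 2 became 4 with median centring (15.7%), 8 with array weights (32.7%), and 0 with no normalisation (4.26%), the authors' background-subtracted (5.57%) or processed values (14.6%), spot medians (7.71%) or dim names left out (32.5% of 114 names). Besides miR-743a and miR-201, miR-202 passed with 75th percentile centring and miR-295 with no background correction. Shares of all names are not given for these settings at 24 h. At 48 h the count was 1 with array weights (7.71%) and 1 with no background correction (2.93%), against 0. Leaving out 1 array gave 0 to 1 at 12 h and 0 to 2 at 24 h. The count at 12 h was 0 without hepatectomy replicate 1 (0.532%), 2 or 3 or sham replicate 2 (0.266% each). The count at 24 h was 0 without hepatectomy replicate 2 (8.24%) or 3 (9.57%) or sham replicate 2 (5.05%) or 3 (5.59%). It was 1 without sham replicate 1 (10.6%). With no normalisation 4 signs turned: miR-133b at 24 h against 12 h in sham liver (0.031), miR-182 and miR-201 between operations at 48 h (0.25 and 0.22) and miR-9 in the change from 12 h to 24 h (-0.0073). The cause of these changes in counts and signs was not tested. Above background in at least 1 hepatectomy group were 4 of 36 with a ratio of 1.2 and 2 with the mean of 3 arrays, against 0. In at least 1 sham group they were 6 with a ratio of 1.2, 0 with a ratio of 2 and 1 with the mean of raw spots, against 2. Shares of all names under these changed rules are not given here, so the counts are not read as particular to the 36. By the mean ratio over all arrays of a chip, 5 of 36 had 1.2 or more on each chip. Of all names, 34.0% had it on the hepatectomy chip and 24.3% on the sham chip. Same-numbered arrays had a median correlation of 0.150 over 63 hepatectomy pairs (range -0.765 to 0.783) and 0.216 over 9 sham pairs (range -0.194 to 0.370). No comparison with differently numbered arrays is given, so whether arrays are paired by number is not settled. The replicate block left the counts at 0 within each operation and at 1, 2 and 0 between operations. Most signals above the constant were smaller than the spread of single spots of their name. That spread is not the error of a median over 15 or 22 spots, and the tests use the spread between arrays. The closeness of the signals to background limits every difference above.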

Other observations

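Outside the 36, a few companion names of the same tissues did pass the test in hepatectomised liver, chosen here after their values were seen. miR-153, a brain miRNA that targets alpha-synuclein, had ratios to background of 1.56, 1.31 and 1.32 at 24 h, against 1.10, 1.01 and 1.14 at 0 h. Its log2 difference was 0.87 (limma adjusted p = 0.00629), and it was the 1 of 10 further neural names called at 24 h, against 7.73% of all names. Against sham liver at 24 h, where its ratios were 1.29, 1.36 and 1.18, the joint fit gave a difference of 0.79 (limma adjusted p = 0.00299), with chip layout and operation not told apart. Of 10 X-linked testis names, miR-743b (0.58, limma adjusted p = 0.0376) and miR-883 (0.70, limma adjusted p = 0.0420) were called at 24 h against 0 h, where 7.73% of all names were. Between operations at 24 h, miR-878 (1.08, limma adjusted p = 0.00246) and miR-883 (0.75, limma adjusted p = 0.0176) were called, where 11.4% of the 376 shared names were. The star strand of miR-204 was called at 12 h (0.51, limma adjusted p = 0.0384) and at 48 h (0.55, limma adjusted p = 0.0233), while miR-204 itself had differences of -0.03 and -0.03. It was the 1 of 9 star strands called at each of these times, against 2.84% and 4.12% of all names. Whether the arms of miR-204 differed was not tested.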
